A study of Mus musculus with 18 samples.

Results

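The genes described here build the mitotic spindle, attach chromosomes to it, pull the chromosomes apart and split the cell. They are 40 genes chosen by their function, and one entered the analysis where the array had a row annotated to that symbol alone. A row was found for 39 of the 40, each on 1 row, out of 22180 genes with such a row. The remaining member, Ccnb1, had none and is only named. The 39 were followed through 3 sorted populations of fetal thymocytes and 3 genotypes.

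Thymus was taken from mouse fetuses at embryonic day 18.5 that were wild type (WT), carried 1 mutant copy of the transcription factor gene Gli3 (Gli3+/-) or had both copies mutated (Gli3-/-), all on a C57BL/6 background. The mutation was carried in every cell, the thymic epithelium included, so thymocytes and the cells around them were not separated by it. Cells that carried both CD4 and CD8 were sorted by CD69 into CD69- DP and CD69+ DP cells, those with CD4 but no CD8 were taken as SP4 cells, and RNA of each was hybridised to Affymetrix Mouse Gene 2.0ST arrays. The 9 groups hold 2 arrays apiece, 18 in all, which the labels number 1 and 2, with the same numbers in every population of a genotype. The sources do not say what the numbers mark or whether an array holds 1 fetus or several, so p-values measure only the spread between these arrays, which may be technical.

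A dividing cell makes the proteins of mitosis in its G2 and M phases and destroys many of them as it leaves mitosis, so the RNAs of these genes are high in a population with many cycling cells and low in a resting one. In the thymus, cells divide in a burst as they pass the pre-TCR checkpoint and become DP. They then rest while the T-cell receptor is tested, and DP cells that receive a signal for positive selection put the activation marker CD69 on their surface before they become SP4 or SP8 cells. In sorted bulk RNA, fewer dividing cells and less of each RNA per cell cannot be told apart.

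Promoters of late cell cycle genes often hold a cell cycle genes homology region (CHR, searched here as TTTGAA or TTCGAA on both strands), through which MuvB-based complexes repress them in resting cells and activate them in G2, and CCAAT boxes (searched as CCAAT on both strands), which NF-Y binds. In the RefSeq promoter table for GRCm38.p6, 31 of the 39 genes had a promoter window. Between 100 bases before and 50 bases after an annotated start, 24 of the 31 (77.4%) held the CHR letters, against 8.3% of the 16990 genes on the array with a window. CCAAT was found in 20 (64.5%), against 26.9%, and both motifs stood together in 19 (61.3%), against 2.3%. E2F-like letters (TTTGGCGC, TTTCGCGC or TTTCCCGC on both strands, a whole match of none of which is a CHR or CCAAT match) were found in 1 of the 31 (3.2%), against 1.5%. Over the full windows of 300 bases the CHR letters were in 25 of the 31 (80.6%) and in 19.4% of the genes on the array. A match is a description of the letters and was not tested as a binding site.

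Promoters from 100 bases before to 30 bases after the start are printed for 10 genes described below, 5′ to 3′ on the strand of the gene, with CHR and CCAAT matches in capitals (TTCAAA and ATTGG are the same letters read from the other strand). The first 7 hold both motifs and belong to genes of different roles, Mki67 holds the CHR letters alone here, and Birc5 and Plk4 hold neither.
Cdk1 (chr10:69352883-69353012, minus strand): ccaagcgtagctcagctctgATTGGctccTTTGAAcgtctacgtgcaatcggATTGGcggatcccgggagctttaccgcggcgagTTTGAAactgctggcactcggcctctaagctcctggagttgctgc
Ccnb2 (chr9:70421525-70421654, minus strand): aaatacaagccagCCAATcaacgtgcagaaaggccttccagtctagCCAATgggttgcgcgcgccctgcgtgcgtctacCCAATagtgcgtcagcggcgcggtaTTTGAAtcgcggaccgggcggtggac
Cdc20 (chr4:118437314-118437443, minus strand): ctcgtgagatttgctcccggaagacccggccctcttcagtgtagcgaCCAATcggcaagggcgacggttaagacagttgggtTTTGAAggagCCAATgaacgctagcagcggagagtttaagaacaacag
Bub1 (chr2:127831830-127831959, minus strand): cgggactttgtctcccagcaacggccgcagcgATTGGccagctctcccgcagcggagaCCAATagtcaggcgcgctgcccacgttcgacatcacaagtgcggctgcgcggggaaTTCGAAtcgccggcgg
Top2a (chr11:99024160-99024289, minus strand): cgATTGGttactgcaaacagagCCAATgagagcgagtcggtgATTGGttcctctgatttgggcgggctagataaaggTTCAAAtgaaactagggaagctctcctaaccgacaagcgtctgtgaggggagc
Kif11 (chr19:37376282-37376411, plus strand): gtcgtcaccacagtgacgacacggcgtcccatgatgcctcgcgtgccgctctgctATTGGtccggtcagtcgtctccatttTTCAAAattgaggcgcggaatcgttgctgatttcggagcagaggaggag
Kif24 (chr4:41464819-41464948, minus strand): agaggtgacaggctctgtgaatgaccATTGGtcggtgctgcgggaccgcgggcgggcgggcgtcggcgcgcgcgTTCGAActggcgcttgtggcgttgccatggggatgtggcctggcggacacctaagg
Mki67 (chr7:135716350-135716479, minus strand): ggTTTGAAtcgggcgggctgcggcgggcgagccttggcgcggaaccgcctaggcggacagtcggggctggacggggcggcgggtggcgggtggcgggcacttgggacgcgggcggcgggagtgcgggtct
Birc5 (chr11:117849137-117849266, plus strand): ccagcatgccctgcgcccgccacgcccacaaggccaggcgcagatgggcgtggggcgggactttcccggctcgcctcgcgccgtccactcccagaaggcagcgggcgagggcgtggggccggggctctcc
Plk4 (chr3:40799851-40799980, plus strand): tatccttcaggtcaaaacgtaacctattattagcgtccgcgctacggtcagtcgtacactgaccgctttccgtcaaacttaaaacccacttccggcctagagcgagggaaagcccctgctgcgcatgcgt

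Values are intensities on a linear scale after normalisation by the authors. Array medians lay between 59.3 and 65.8, and all 39 genes had a mean above the median of all rows. The sorted populations carried their markers: Cd69 read 92 to 220.3 on the 6 arrays of CD69- DP cells and 675 to 1416 on the 6 of CD69+ DP cells. Cd8a, which encodes the CD8 alpha chain and which SP4 cells should have lost, still read 1120 to 2689 in SP4 cells against 3822 to 4483 in CD69- DP cells. Gli3 itself read 27.6 to 37.1 on all 18 arrays with the genotypes overlapping, so its signal does not check the genotype labels. The Y-linked gene Eif2s3y read 15.1 to 22.5 on the 6 Gli3-/- arrays and 229 to 696 on the other 12, so the sex of the fetuses and the genotype cannot be told apart in full. In WT and Gli3+/- cells it read 410 to 696 on number 1 and 229 to 321 on number 2 arrays, so it also differed with the number.

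The mitosis and spindle genes were high in CD69- DP cells, lowest in CD69+ DP cells and intermediate in SP4 cells. On the number 1 arrays of CD69- DP cells, the mean log2 intensity over the 39 genes was 9.37 for WT, 9.25 for Gli3+/- and 9.10 for Gli3-/-, and on the number 2 arrays 9.54, 9.61 and 9.61. For CD69+ DP cells the means on number 1 were 7.50, 7.48 and 7.61 in the same order, and on number 2 they were 8.58, 9.09 and 8.71. For SP4 cells they were 8.69, 8.88 and 8.81 on number 1, then 9.07, 9.18 and 9.34 on number 2. All 6 CD69+ DP arrays lay below all 6 CD69- DP arrays, but the CD69+ DP arrays numbered 1 lay far below those numbered 2, and the number 2 arrays of Gli3+/- and Gli3-/- CD69+ DP cells overlapped the SP4 arrays. The mean over all 22180 genes stayed between 6.25 and 6.30 on the 18 arrays.

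**Figure D1:**
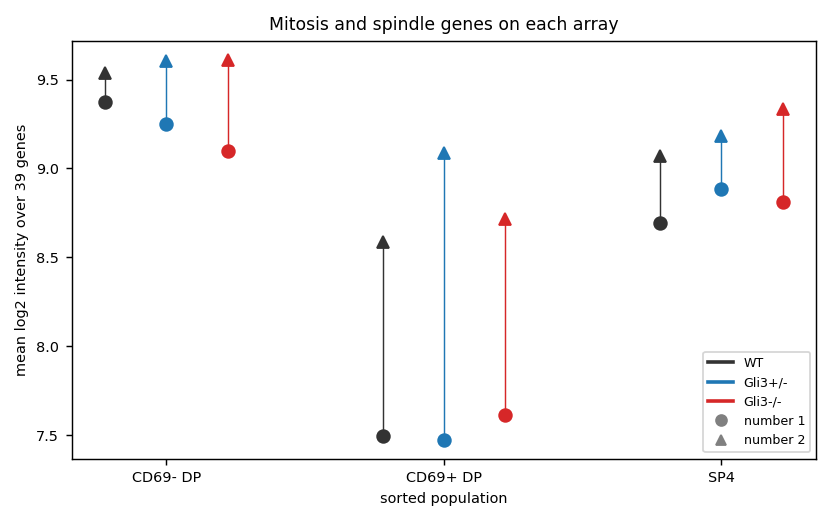
Mean log2 intensity over the 39 mitosis and spindle genes on each of the 18 arrays, by sorted population (horizontal axis), genotype (colour) and number in the labels (circle for 1, triangle for 2). Each line joins the 2 arrays of a group. The CD69+ DP arrays numbered 1 lie between 7.48 and 7.61, below every other array.

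From CD69- DP to CD69+ DP cells, the mean over the 3 genotypes was lower for all 39 genes, with a median log2 change of -1.29, against a median change of 0.01 over all genes. Of the 39, 36 were called lower at an adjusted p under 0.05 (limma with Benjamini-Hochberg adjustment over 22180 genes), where 4.73% of all genes were called lower and 7.79% in either direction. The 3 that were not called were Plk1 (log2 change -1.11 ± 0.33, adjusted p = 0.0535), Incenp (-1.02 ± 0.29, adjusted p = 0.0504) and Cenpa (-0.77 ± 0.22, adjusted p = 0.0507), whose errors are SE as are those below, with 6 arrays against 6. When the number of the array was added to the fit (replicate block), all 39 were called lower, beside 7.37% of all genes, and Plk1 was at -1.11 ± 0.16, adjusted p = 0.000189. Of the 39 genes, 17 had all 6 CD69+ DP arrays below all 6 CD69- DP arrays, as had 3.26% of all genes. Within number 1 and within number 2, with 3 arrays against 3, 39 and 38 did, beside 13.1% and 14.1% of all genes. In size of change, the 39 stood between Stmn1, whose change exceeded that of 95.7% of all genes, and Ndc80, whose change exceeded that of 99.8%.

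**Figure D2:**
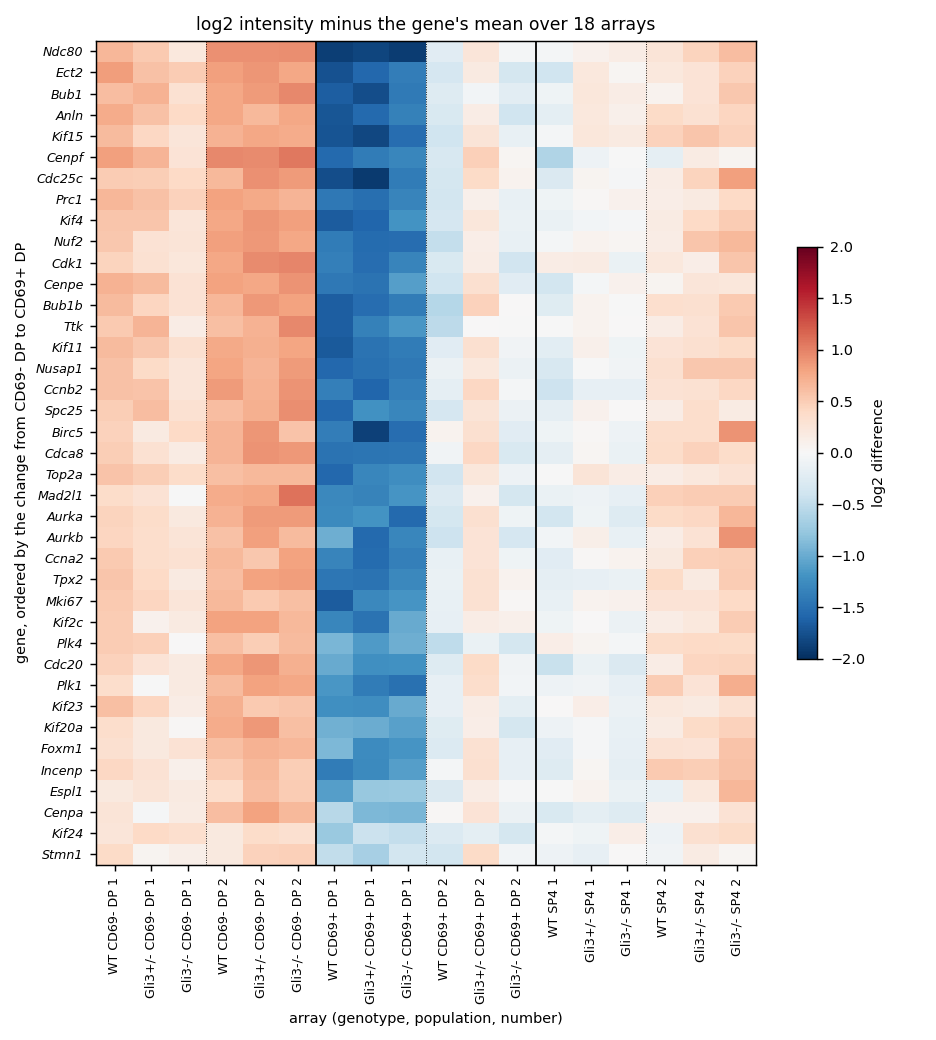
Log2 intensity of each of the 39 genes (rows, ordered by their change from CD69- DP to CD69+ DP cells) on each of the 18 arrays (columns, by population and then number), as the difference from the mean of the gene. Red is above and blue below the mean of the gene. The dark blue block is the 3 number 1 arrays of CD69+ DP cells.

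Among the kinases, 7 of 8 were called lower in CD69+ DP cells, with a median change of -1.32. Intensities are given in the order WT, Gli3+/- and Gli3-/-. Cdk1 read 1021, 923 and 873 on number 1 and 1274, 1437 and 1474 on number 2 arrays of CD69- DP cells, 289, 259.7 and 297 on number 1 and 605, 823 and 574 on number 2 arrays of CD69+ DP cells, and 826, 832 and 677 on number 1 and 866, 817 and 1101 on number 2 arrays of SP4 cells. Cdk1 is the kinase that drives entry into mitosis, and it fell by 1.41 ± 0.28 on the log2 scale (adjusted p = 0.00755). The lowest CD69- DP array (873) lay above the highest CD69+ DP array (823). Bub1 read 599, 634 and 482 on number 1 and 664, 703 and 758 on number 2 arrays of CD69- DP cells, 124, 114 and 146 on number 1 and 326, 376 and 337 on number 2 arrays of CD69+ DP cells, and 369, 456 and 431 on number 1 and 410.5, 471 and 569.6 on number 2 arrays of SP4 cells. Bub1, a kinase of the spindle assembly checkpoint, showed the greatest fall of the 8 kinases (-1.59 ± 0.30, adjusted p = 0.00484), and its CD69- DP arrays all lay above its CD69+ DP arrays.

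Plk1 read 569, 444 and 502 on number 1 and 693, 773 and 759 on number 2 arrays of CD69- DP cells, 198, 169 and 158 on number 1 and 396, 567 and 429.5 on number 2 arrays of CD69+ DP cells, and 415, 425 and 395 on number 1 and 632, 539 and 735 on number 2 arrays of SP4 cells. Plk1, which acts at centrosomes, kinetochores and the site of cytokinesis, overlapped between these populations, since the number 2 array of Gli3+/- CD69+ DP cells (567) lay above 2 of the CD69- DP arrays. Aurkb read 545, 516 and 485 on number 1 and 611, 714 and 631 on number 2 arrays of CD69- DP cells, 206, 139 and 163 on number 1 and 303, 488 and 321 on number 2 arrays of CD69+ DP cells, and 391, 439 and 365 on number 1 and 447, 494 and 754 on number 2 arrays of SP4 cells. Aurkb, the kinase of the chromosomal passenger complex, changed by -1.23 ± 0.28, adjusted p = 0.0143, with the highest CD69+ DP array (488) just above the lowest CD69- DP array (485). Aurka, which matures centrosomes, changed by -1.26, Ttk and Bub1b of the checkpoint by -1.38 and -1.39, and Plk4, the kinase that licenses centriole duplication, by -1.12 ± 0.17, adjusted p = 0.00169. Plk4 ranged from 435 to 668 (median 609) in CD69- DP cells and from 197 to 394 (median 267) in CD69+ DP cells, without overlap.

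Cyclins and the regulators of entry into and exit from mitosis were all called lower (6 of 6, median -1.17). Cdc20 read 471, 412 and 387 on number 1 and 582, 629 and 559.5 on number 2 arrays of CD69- DP cells, 169, 146 and 147 on number 1 and 286, 446 and 326 on number 2 arrays of CD69+ DP cells, and 252, 312 and 281 on number 1 and 381, 459 and 466 on number 2 arrays of SP4 cells. Cdc20 activates the anaphase-promoting complex, and it changed by -1.11 ± 0.28, adjusted p = 0.0281, with 1 CD69+ DP array (446) above 2 CD69- DP arrays. Ccna2 and Ccnb2, the cyclin partners of Cdk1, changed by -1.23 ± 0.30, adjusted p = 0.0219, and by -1.33 ± 0.33, adjusted p = 0.0238. Ccnb2 ranged from 1146 to 1815 (median 1520) in CD69- DP and from 325 to 1290 (median 617) in CD69+ DP cells, and the promoter printed for it holds 3 CCAAT matches ahead of a CHR match. Cdc25c, the phosphatase that switches Cdk1 on, ranged from 235 to 338 (median 266) and from 47.4 to 233 (median 104), a change of -1.47. Espl1, the protease that cuts cohesin at anaphase, changed by less (-0.81 ± 0.20, adjusted p = 0.0209). Foxm1 read 341, 314 and 332 on number 1 and 414, 439.9 and 433 on number 2 arrays of CD69- DP cells, 147, 114 and 121 on number 1 and 227, 336 and 245 on number 2 arrays of CD69+ DP cells, and 233, 267 and 243 on number 1 and 334, 328 and 404 on number 2 arrays of SP4 cells. Foxm1 encodes the transcription factor of late cell cycle genes, and it changed by -1.04 ± 0.26, adjusted p = 0.0241, with 1 CD69+ DP array (336) above 2 CD69- DP arrays.

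Of the checkpoint protein Mad2l1 and the passenger complex subunits Birc5, Incenp and Cdca8, all but Incenp were called lower (median -1.28). Birc5 read 736, 602 and 707 on number 1 and 856, 979.9 and 795 on number 2 arrays of CD69- DP cells, 206, 147 and 185 on number 1 and 558, 663 and 458 on number 2 arrays of CD69+ DP cells, and 504, 542 and 496 on number 1 and 677, 683 and 990.3 on number 2 arrays of SP4 cells. Birc5, known as survivin, changed by -1.30 ± 0.36, adjusted p = 0.0405. Its CD69+ DP arrays read 147 to 206 on number 1, below every CD69- DP and SP4 array, and 458 to 663 on number 2.

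Kinetochore genes had the lowest median of the groups with more than 2 genes (-1.41), and 5 of 6 were called lower. Ndc80 read 908, 827 and 661 on number 1 and 1076, 1075 and 1090 on number 2 arrays of CD69- DP cells, 155, 161 and 154 on number 1 and 488, 675 and 558 on number 2 arrays of CD69+ DP cells, and 555, 608 and 632 on number 1 and 684, 777 and 882 on number 2 arrays of SP4 cells. Ndc80, the microtubule-binding core of the kinetochore, had the largest change of all 39 (-1.63 ± 0.38, adjusted p = 0.0173), and its arrays in CD69+ DP cells split into 154 to 161 on number 1 and 488 to 675 on number 2. Its partners Nuf2 and Spc25 changed by -1.42 and -1.32, and the motor Cenpe and the corona protein Cenpf by -1.40 and -1.47. Cenpa, the histone variant that marks centromeres, had a log2 change of -0.77 that did not pass the test.

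All 7 kinesins were called lower, with a median of -1.13. Kif11 read 1691, 1588 and 1369 on number 1 and 1846, 1778 and 1885 on number 2 arrays of CD69- DP cells, 342, 394 and 415 on number 1 and 933, 1361 and 1036 on number 2 arrays of CD69+ DP cells, and 941, 1168 and 1025 on number 1 and 1315, 1357 and 1426 on number 2 arrays of SP4 cells. Kif11 is the motor that pushes the spindle poles apart, and its 6 CD69- DP arrays lay above its 6 CD69+ DP arrays (change -1.38 ± 0.31, adjusted p = 0.0147). Kif15, which helps to keep the spindle bipolar, changed by -1.48, and the chromokinesin Kif4, which is X-linked, by -1.42. Kif23 and Kif20a, motors of the central spindle, changed by -1.11 and -1.05, and the microtubule depolymerase Kif2c by -1.13. Kif24 read 190.4, 211 and 203 on number 1 and 183, 206 and 201 on number 2 arrays of CD69- DP cells, 96.2, 119 and 116 on number 1 and 134, 139.8 and 126 on number 2 arrays of CD69+ DP cells, and 156, 152 and 176 on number 1 and 149, 200.2 and 209.7 on number 2 arrays of SP4 cells. Kif24, known for holding back cilium assembly at the mother centriole, had the next to smallest fall and the smallest SE of all 39 (-0.72 ± 0.10, adjusted p = 0.000566), and none of its CD69+ DP arrays reached a CD69- DP array.

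Spindle and cytokinesis proteins were all called lower (6 of 6, median -1.39), with Ect2, which starts the cleavage furrow, at -1.60 ± 0.29, adjusted p = 0.00432, and the furrow scaffold Anln at -1.51. The midzone bundler Prc1 changed by -1.44, and the spindle assembly factors Nusap1 and Tpx2 by -1.34 and -1.23. Stmn1 read 487, 388 and 406 on number 1 and 429, 519 and 523 on number 2 arrays of CD69- DP cells, 266, 237 and 289.5 on number 1 and 292, 488 and 359.7 on number 2 arrays of CD69+ DP cells, and 350.2, 336 and 377 on number 1 and 358, 418 and 384 on number 2 arrays of SP4 cells. Stmn1, which destabilises microtubules and is also made outside mitosis, had the smallest change of the 39 (-0.54 ± 0.15, adjusted p = 0.0412), and its populations overlapped.

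Of the 2 genes of the mitotic chromosome, Mki67 read 2661, 2481 and 2189 on number 1 and 2902, 2642 and 2806 on number 2 arrays of CD69- DP cells, 581, 757 and 812 on number 1 and 1656, 2269 and 1882 on number 2 arrays of CD69+ DP cells, and 1662, 1943 and 1960 on number 1 and 2221, 2239 and 2442 on number 2 arrays of SP4 cells. Mki67 encodes the proliferation marker Ki-67, which coats mitotic chromosomes, and it changed by -1.16 ± 0.29, adjusted p = 0.0256. Top2a read 2913, 2771 and 2534 on number 1 and 3002, 3093 and 3081 on number 2 arrays of CD69- DP cells, 663, 798 and 836 on number 1 and 1517, 2310 and 1839 on number 2 arrays of CD69+ DP cells, and 1963, 2356 and 2178 on number 1 and 2183, 2277 and 2408 on number 2 arrays of SP4 cells. Top2a, which untangles sister chromatids, changed by -1.28 ± 0.26, adjusted p = 0.0075, and its lowest CD69- DP array (2534) lay above its highest CD69+ DP array (2310).

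**Figure D3:**
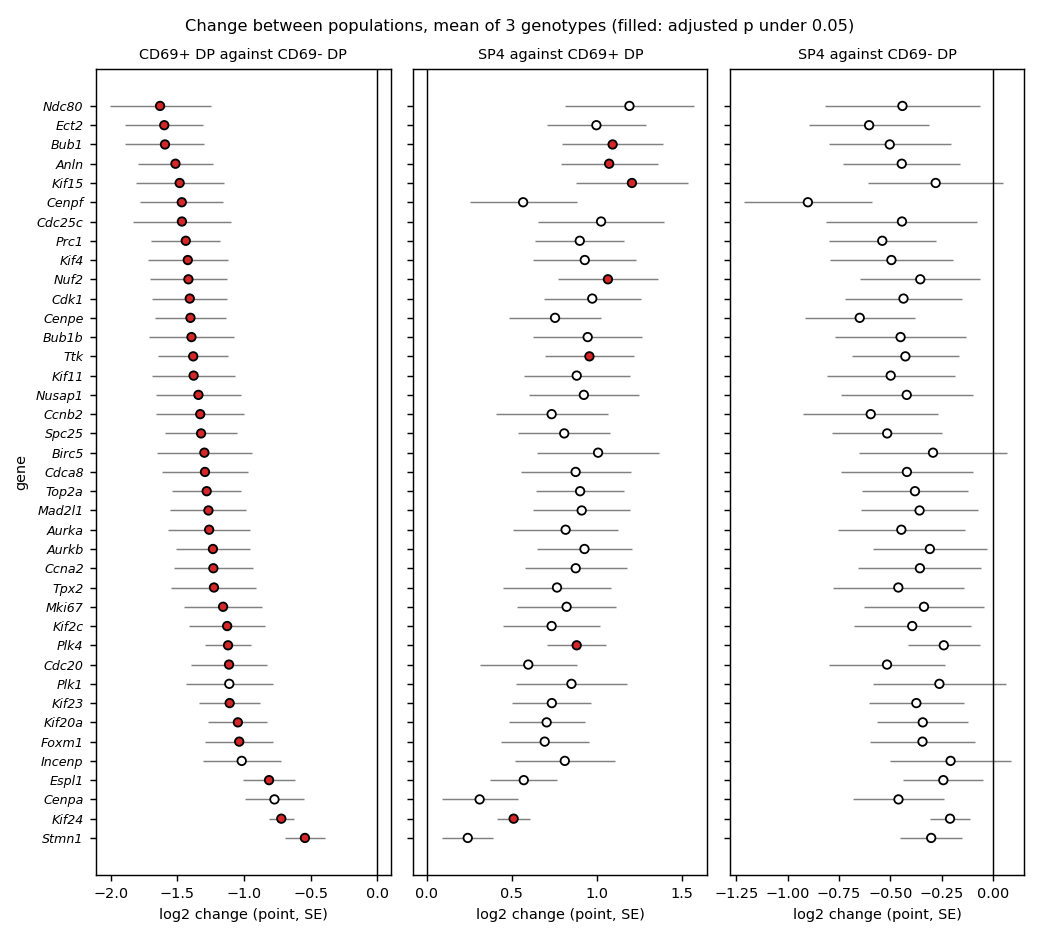
Log2 change of each of the 39 genes (vertical axis) between populations, as the mean of the 3 genotypes with its SE (horizontal axis), for CD69+ DP against CD69- DP, SP4 against CD69+ DP and SP4 against CD69- DP cells. Filled points have an adjusted p under 0.05 without a replicate block: 36, 7 and 0 genes in the 3 panels, against 39, 36 and 7 with the block.

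In each genotype taken alone, with 2 arrays against 2, the median log2 change over the 39 genes was -1.45 in WT, -1.18 in Gli3+/- and -1.27 in Gli3-/-, and 0 genes were called in any of the 3 at an adjusted p under 0.05, where 0.681%, 0.189% and 0.289% of all genes were. At an unadjusted p under 0.05, limma counted 36, 25 and 32 of the 39, and 10.4%, 8.81% and 10.3% of all genes. With the replicate block 37, 14 and 24 of the 39 were called lower, beside 2.26%, 0.987% and 1.71% of all genes. The median log2 change over the 3 genotypes was -1.35 for the 24 genes with the CHR letters near the start and -1.30 for the 7 without them.

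From CD69+ DP to SP4 cells, all 39 genes were higher, by a median of 0.87 on the log2 scale, against -0.02 over all genes. This comparison uses the same CD69+ DP arrays as the first. Without a replicate block 7 genes were called higher, where 4.41% of all genes were called higher and 6.15% in either direction. With the block 36 were called higher, beside 7.66% of all genes, and Cenpa, Cenpf and Stmn1 were not. The 7 called without it were Kif15 (log2 change 1.20 ± 0.33, adjusted p = 0.046), Bub1 (1.09 ± 0.30, adjusted p = 0.0444), Anln (1.07 ± 0.28, adjusted p = 0.0397), Nuf2 (1.06 ± 0.29, adjusted p = 0.0461), Ttk (0.95 ± 0.26, adjusted p = 0.0461), Plk4 (0.88 ± 0.17, adjusted p = 0.00856) and Kif24 (0.51 ± 0.10, adjusted p = 0.00602). Plk4 and Kif24 were also the only members of which all 6 SP4 arrays lay above all 6 CD69+ DP arrays, as they did for 3.08% of all genes. Within number 1 and within number 2, the SP4 arrays lay above for 39 and 18 members, beside 10.9% and 12.2% of all genes. Plk4 read 419.8 to 567 (median 512) in SP4 cells. At an unadjusted p under 0.05 there were 35 of the 39 genes and 19.7% of all genes. Ndc80 had a difference of 1.19 ± 0.38, adjusted p = 0.0865, that did not pass without the block (adjusted p = 0.0031 with it), with its SP4 arrays at 555 to 882 (median 658) overlapping its number 2 CD69+ DP arrays. The smallest changes were those of Stmn1 (0.24 ± 0.15, adjusted p = 0.414), Cenpa (0.31 ± 0.22, adjusted p = 0.492) and Kif24. Within WT, Gli3+/- and Gli3-/- alone the medians were 0.87, 0.77 and 0.89, with 0 genes called in each (0.618%, 0.0721% and 0.194% of all genes) and 6, 3 and 10 at an unadjusted p under 0.05 (11%, 7.02% and 13%). The block gave 3, 1 and 6 called higher, beside 2.27%, 0.649% and 2.01% of all genes.

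Single arrays decided both counts without the block, while the sign of the median did not turn. Counts over all genes in these fits are not given here, so it is not shown whether other genes changed alike. For SP4 against CD69+ DP cells, 36 genes were called without the number 2 array of Gli3+/- CD69+ DP cells, 16 without that of WT and 14 without that of Gli3-/-. Without the number 1 array of CD69+ DP cells of any genotype 2 were called, as also without any SP4 array other than the number 1 array of Gli3-/-, without which 9 were. For CD69+ DP against CD69- DP cells, 16, 23 and 17 genes were called without the number 1 CD69+ DP array of WT, Gli3+/- and Gli3-/-, and 21, 22 and 20 without the number 2 CD69- DP array of the same genotypes. Without any other array the count was between 28 and 39.

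SP4 cells stayed below CD69- DP cells for all 39 genes, by a median of 0.42 on the log2 scale, but 0 genes were called by limma, where 9.78% of all genes were called in either direction. At an unadjusted p under 0.05 there were 3, and 20.2% of all genes. With the replicate block 7 were called lower (Aurka, Ccnb2, Cdc20, Cenpa, Cenpe, Cenpf and Kif20a), beside 6.21% of all genes, with Cenpf at an adjusted p of 0.00623. The greatest differences were those of Cenpf (-0.90 ± 0.31, adjusted p = 0.0971), Cenpe (-0.65 ± 0.27, adjusted p = 0.177) and Ect2 (-0.60 ± 0.29, adjusted p = 0.272), and the smallest those of Incenp (-0.21), Kif24 (-0.21) and Plk4 (-0.24). Top2a, Cenpe, Cenpf, Prc1 and Ect2 had all 6 SP4 arrays below all 6 CD69- DP arrays, 5 of the 39 genes, as had 2.7% of all genes. Within number 1 and within number 2 the counts were 38 and 32, beside 14.4% and 11.8% of all genes. Cenpf ranged from 554 to 955 (median 847) in CD69- DP and from 301 to 513 (median 443) in SP4 cells, and Ect2 from 690.1 to 900.3 (median 844) and from 368 to 672 (median 561).

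Some genes listed for other cell types or for immature thymocytes were called higher in SP4 than in CD69+ DP cells. Their counts stand beside 4.41% of all genes called higher there without the replicate block and 7.66% with it. Of 11 neutrophil and progenitor genes, 4 were called higher in SP4 than in CD69+ DP cells and 0 lower, with S100a8 at 126 to 619 in SP4, 19.9 to 226 in CD69+ DP and 16.8 to 28.1 in CD69- DP cells. The summed intensity of the 11 was 424 to 459 in CD69- DP, 454 to 864 in CD69+ DP and 598 to 1520 in SP4 cells, and 3 of them read below 50 on every SP4 array. Elane, which defines neutrophil precursors, read 72.3 to 92.5 in SP4 and 79.9 to 93.9 in CD69- DP cells. Of 11 macrophage and dendritic cell genes 4 were called higher, with sums of 646 to 679, 717 to 836 and 825 to 1208 in the same order. Among 10 genes of immature thymocytes, 5 were called higher in SP4 than in CD69+ DP cells, and 9 of the 10 with the replicate block. Il2ra read 387 to 574 against 208 to 301. Il7r of this list read 504 to 2195 in SP4, 83.9 to 408 in CD69+ DP and 19.1 to 29 in CD69- DP cells. It was thus lowest in the least mature of the 3 populations and does not by itself mark immature cells here. The sum of the 10, which includes Il7r, was 2591 to 3631 in SP4 cells. It was 1251 to 1532 in CD69+ DP and 1334 to 1604 in CD69- DP cells. These values do not tell which cells made the RNAs. Summed over the list, 7 natural killer and gamma-delta T-cell genes read 806 to 1137 in CD69- DP and 998 to 1432 in CD69+ DP cells. In SP4 cells they read 953 to 2205, a range that reached higher but overlapped. The sums of 3 other lists lay closer together: 12 epithelial and mesenchymal genes read 1175 to 1394 in SP4 and 1357 to 1464 in CD69+ DP cells, 7 B-cell genes 273 to 411 and 289 to 362, and 5 erythroid genes 289 to 331 and 275 to 327. Their part in the SP4 level of the mitosis genes was not tested.

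Within CD69+ DP cells, the arrays numbered 2 were far above those numbered 1. All 39 genes were higher on the number 2 arrays, by a median of 1.30 on the log2 scale, and 37 were called (3 arrays against 3, in a fit of genotype with population and number, chosen after the data were seen), where 3.54% of all genes were called higher. For all 39 genes the 3 number 2 arrays lay above the 3 number 1 arrays, as they did for 10.3% of all genes. Ndc80 had the largest difference (1.86 ± 0.12, adjusted p = 4.27e-07), followed by Cdc25c (1.73), Birc5 (1.64) and Kif15 (1.59). Cdc25c read 52.2, 47.4 and 67.8 on the number 1 and 139.9, 233 and 187 on the number 2 arrays. Kif24 (0.27 ± 0.10, adjusted p = 0.139) and Stmn1 (0.50 ± 0.15, adjusted p = 0.0567) were not called.

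In the other populations the same difference was smaller. The median was 0.34 in CD69- DP cells, where 7 genes were called higher (Mad2l1, Cdk1, Plk1, Cenpa, Kif20a, Cdca8 and Cdc20) beside 2.75% of all genes, and 0.39 in SP4 cells, where 12 were called higher beside 2.29% of all genes. Aurka was the highest in SP4 cells (0.72 ± 0.13, adjusted p = 0.00448) and Mad2l1 in CD69- DP cells (0.66 ± 0.12, adjusted p = 0.00812). The difference between numbers was itself larger in CD69+ DP than in CD69- DP cells for all 39 genes (median 1.01), and 25 passed the test of that interaction, beside 0.473% of all genes that passed in that direction. Against SP4 cells the median was 0.95 and 20 passed, beside 0.212%. Between SP4 and CD69- DP cells 0 of the 39 passed and 1 had an unadjusted p under 0.05, beside 0.113% and 9.73% of all genes. Ndc80 led both (1.41 ± 0.18, adjusted p = 0.00155, and 1.48 ± 0.18, adjusted p = 0.00292).

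**Figure D4:**
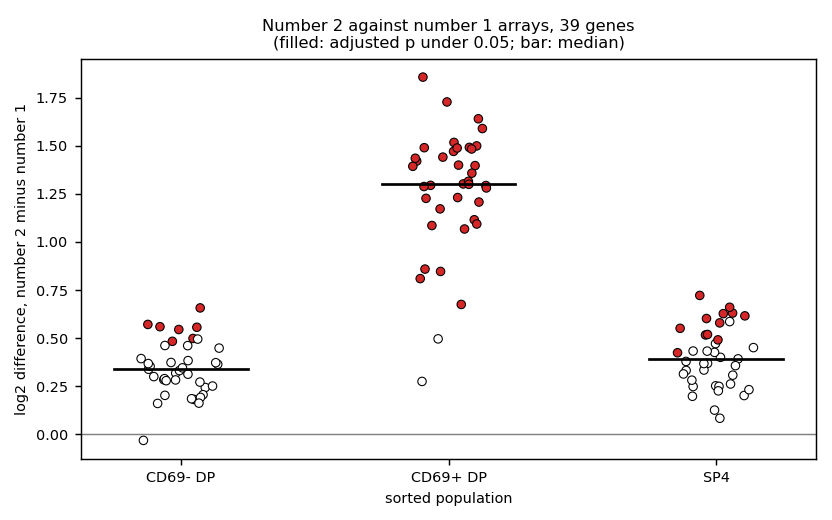
Log2 difference between number 2 and number 1 arrays for each of the 39 genes (points) in each sorted population, with the median as a bar and filled points at an adjusted p under 0.05. The medians are 0.34 in CD69- DP, 1.30 in CD69+ DP and 0.39 in SP4 cells.

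Other genes moved with the number in CD69+ DP cells. Cd69 read 1204, 1416 and 1330 on the number 1 and 783, 675 and 917 on the number 2 arrays. Itm2a, a gene induced by positive selection, read 2260, 2263 and 2003 against 1053, 810 and 1141, and the recombinase gene Rag2, which selection switches off, read 623, 669 and 769 against 1679, 1292 and 1239. The number 2 arrays thus lay nearer to CD69- DP cells in these 3 genes, as they did in the mitosis genes. In CD69- DP cells Cd69 and Itm2a moved the other way and were higher on number 2. There Cd69 read 119, 111 and 92 on number 1 against 192, 220 and 202. Itm2a read 174, 166 and 163 against 216, 206 and 257. Of 12 immediate early and heat shock genes, 8 were called higher on number 2, with Jun at 62.9, 108 and 63.8 against 456, 433 and 543. Of all genes, 3.54% were called higher on number 2 in CD69+ DP cells. Some of these moves were also seen where the mitosis genes differed less: Jun read 61.6, 85.8 and 81.2 against 380.2, 397 and 302 in CD69- DP cells and 62.6, 125 and 64.7 against 588, 569 and 604 in SP4 cells. Itm2a in SP4 cells read 3235, 2971 and 2399 against 2092, 1348 and 1750. The part of these differences in those of the mitosis genes was not tested, and the sources do not say what the numbers stand for.

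With the numbers taken apart, both differences were larger on number 1 than on number 2. From CD69- DP to CD69+ DP cells the median change was -1.81 on number 1, with 39 called lower beside 6.08% of all genes, and -0.81 on number 2, with 38 called lower beside 4.56%. From CD69+ DP to SP4 cells it was 1.33 on number 1, with 38 called higher beside 4.53%, and 0.43 on number 2, with 16 called higher beside 5.87%. Cenpf turned in sign on number 2 (-0.05, against 1.19 on number 1). SP4 cells lay below CD69- DP cells by about the same amount on both, with medians of -0.41 and -0.39, and 24 and 17 genes called lower beside 4.7% and 3.67% of all genes. In that comparison Cenpf was -0.83 on number 1 and -0.97 on number 2.

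Between genotypes, 0 of the 39 genes were called in any population by limma. Gli3-/- against WT gave medians over the 39 genes of -0.10 for CD69- DP cells, with 6 genes higher, 0.11 for CD69+ DP cells, with 29 higher, and 0.19 for SP4 cells, with 36 higher. Of all genes 0.0135%, 0.00902% and 0.0135% were called in those comparisons. An unadjusted p under 0.05 was reached by 0 of the 39 in any of them, and by 2.01%, 2.91% and 5.14% of all genes. The SE of a single gene had a median of 0.50 (2 arrays against 2). These fits hold no term for the number, so the SEs and p-values of the genotype comparisons include the difference between numbers.

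In CD69- DP cells the largest differences were those of Kif23 (-0.31 ± 0.40, adjusted p = 1), Kif2c (-0.25) and Kif20a (-0.23), and the smallest those of Cdk1, Stmn1 and Ttk. In CD69+ DP cells they were those of Ttk (0.50 ± 0.45, adjusted p = 1), Bub1b (0.41) and Cdc25c (0.40). Ttk read 90.5 on number 1 and 196 on number 2 in WT, and 127 and 279.6 in Gli3-/- CD69+ DP cells. With both numbers together the genotypes overlapped, as they did for every member in this population. That overlap cannot decide on a genotype difference, since number 2 arrays lay far above number 1 arrays here. Within each number Ttk read higher in Gli3-/-, with single arrays and no test. Of the members, 27 read higher and 12 lower in Gli3-/- on number 1, and 28 and 11 on number 2. In SP4 cells the largest were those of Cdc25c (0.47 ± 0.64, adjusted p = 0.996), Cenpf (0.42) and Ect2 (0.35).

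For 5 of the 39 genes the 2 Gli3-/- SP4 arrays were both brighter than either WT SP4 array: Bub1, Cenpe, Cenpf, Kif24 and Stmn1. The same held for 12.5% of all genes, about the same share, so this count does not set the members apart. Among CD69- DP arrays, Kif24 was brighter on either Gli3-/- array than on any WT array (14.5% of all genes were), and Kif23 and Ect2 were dimmer (14.6%). Kif24 read 190.4 and 183 in WT and 203 and 201 in Gli3-/- CD69- DP cells, and 156 and 149 against 176 and 209.7 in SP4 cells. Its difference in SP4 cells was 0.33 ± 0.16, adjusted p = 0.968. The summed intensity of the 11 neutrophil and progenitor genes also differed between these SP4 arrays, at 1236 and 1379 in WT and 598 and 1178 in Gli3-/-, as did genes of DP cells. Cd8a read 1120 and 1938 in WT and 2689 and 2064 in Gli3-/- SP4 cells, and Rag2 read 475 and 978 against 1184 and 1023, so that for both the Gli3-/- arrays were the brighter. The part of these in the values of the 5 genes was not tested.

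Averaged over the 3 populations, Gli3-/- against WT had a median of 0.06 over the 39 genes (31 higher, 0 called, 0 at an unadjusted p under 0.05, beside 0.0135% and 3.8% of all genes), with Cdc25c (0.31 ± 0.37, adjusted p = 1), Espl1 (0.24) and Ttk (0.23) at the top. Gli3+/- against the same WT arrays gave a median of 0.13 (34 higher). In no population, nor over all 3, was any of the 39 or of all genes called for Gli3+/- (0%), and an unadjusted p under 0.05 was reached by 0 of the 39 and by 1.77%, 2.48%, 4.12% and 3.83% of all genes in the 3 populations and over all 3. The Gli3-/- difference was larger in SP4 than in CD69- DP cells for all 39 genes, by a median of 0.31 on the log2 scale, but 0 passed the test of that interaction, with a median SE of 0.71, and 0 of all genes (0%) did. An unadjusted p under 0.05 was reached by 0 of the 39 and 3.08% of all genes. Kif4, on the X chromosome, differed between Gli3-/- and WT by -0.13, 0.34 and 0.22 in the 3 populations in turn.

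**Figure D5:**
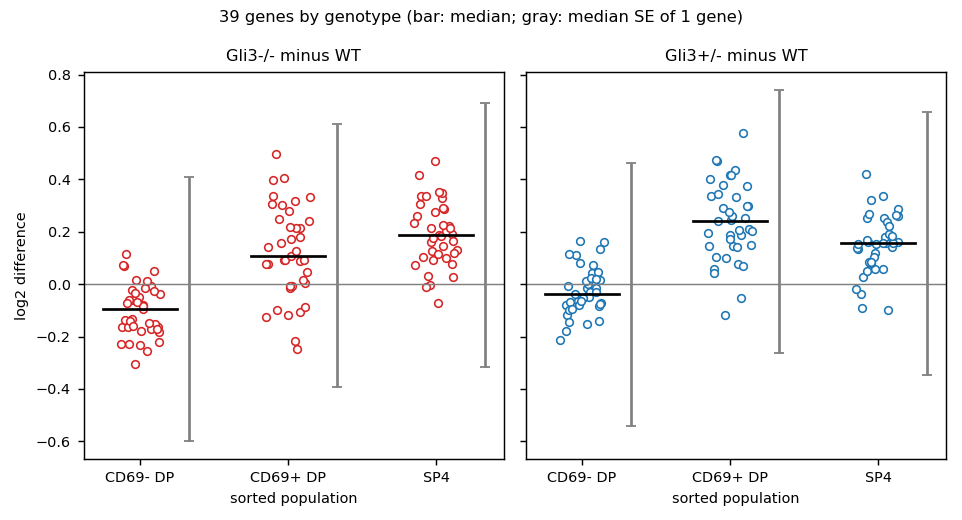
Log2 difference of each of the 39 genes (points) from WT in Gli3-/- (left) and Gli3+/- (right) cells, in each sorted population, with the median as a black bar and the median SE of a single gene as a gray bar. The medians for Gli3-/- are -0.10, 0.11 and 0.19, and 0 genes were called.

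Taken array by array within a number, the sign of the genotype difference was not constant in CD69- DP cells. On number 1 arrays 38 of the 39 genes read lower in Gli3-/- than in WT (median -0.31), and on number 2 arrays 28 read higher (median 0.05). In CD69+ DP cells the medians were 0.16 and 0.15, and in SP4 cells 0.11 and 0.23. These are single arrays against single arrays, with no test.

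Other genes of cell division were described by the same rules in lists apart from the 39. Their counts stand beside 4.73% of all genes called lower from CD69- DP to CD69+ DP cells and 4.41% called higher from there to SP4 cells. With the replicate block these shares were 7.37% and 7.66%. Of 28 other kinetochore genes, from CD69- DP to CD69+ DP cells 18 were called lower (median -0.99), led by Cenpk (-1.71 ± 0.35, adjusted p = 0.00853), and 10 were called higher in SP4 cells (median 0.78), or 22 with the replicate block. Of 17 centrosome and spindle pole genes 12 were called lower (median -0.68), led by Hmmr (-1.50) and Stil (-1.48). Of 19 condensin and cohesin genes 11 were called lower (median -0.43), with the condensin II subunit Ncapg2 at -1.45, and the condensin core Smc4 was called lower at the next step, against the rise of its list (-0.25 ± 0.06, adjusted p = 0.026). Among 18 other kinesins, several of which carry cargo outside mitosis, 5 were called lower and the median was -0.06. Kif18a, which aligns chromosomes, led them (-1.71 ± 0.33, adjusted p = 0.00588). The 22 genes of the anaphase-promoting complex and its regulators had 5 called lower and a median of -0.26, with its inhibitor Fbxo5 at -0.83, and the block gave 11. Of 10 tubulins 1 was called lower, Tuba1b (-0.30 ± 0.08, adjusted p = 0.0317), and 6 were with the block.

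Genes that control G2 and M had 14 of 23 called lower in CD69+ DP cells (median -0.60), among them the E2F repressor E2f8 (-1.48) and Mastl, the kinase that holds phosphatases off in mitosis (-1.37). In SP4 cells 11 were called higher than in CD69+ DP cells, and 18 with the block. Rbl2, a pocket protein of the DREAM complex that represses cell cycle genes in resting cells, was the 1 called lower (-0.39 ± 0.09, adjusted p = 0.0239).

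DNA replication genes, which work in S phase, were lower in CD69+ DP than in CD69- DP cells and higher again in SP4 cells. From CD69- DP to CD69+ DP cells 16 of 19 were called lower (median -0.86), led by Pole (-1.21 ± 0.20, adjusted p = 0.00273), the catalytic subunit of the leading-strand polymerase. From CD69+ DP to SP4 cells 17 of 19 were called higher (median 1.07) and 19 with the replicate block, with Pole (1.43), Cdc6 (1.32), Mcm5 (1.32) and Mcm3 (1.26) in front. In SP4 against CD69- DP cells the replication genes had a median of 0.24 (13 higher and 6 lower, 0 called, and 2 called higher with the block) and the mitosis genes one of -0.42. Of all genes, 7.91% were called higher there with the block. Pole, which led its list, read 266 to 376 in SP4 and 193 to 323 in CD69- DP cells. Cenpf, with the greatest fall of the 39 mitosis genes, read lower in SP4 cells on every array. Over both numbers together only 5 of the 39 did so, and the others overlapped. Within number 1 and within number 2, 38 and 32 of the 39 did so, beside 14.4% and 11.8% of all genes. The difference between the lists was not tested.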

How the data were processed

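RNA of sorted fetal thymocytes was measured on 18 Affymetrix Mouse Gene 2.0ST arrays. The authors normalised the arrays by RMA with the oligo package (version not given in the sources used here) and deposited 1 linear intensity per transcript cluster and array. Genes were named from the platform annotation in GEO, which can be old: of 41345 rows, 23521 had 1 symbol, 1820 several and 16004 none, and the brightest row stood for each of 22180 genes. Log2 intensities were fitted with limma 3.58.1 (R 4.3.3) as 9 group means, and population changes are means over the 3 genotypes. P-values were adjusted by Benjamini-Hochberg over all genes and called under 0.05. Differences between numbers came from a fit of genotype with population and number, added after the data were seen. The code was tested on simulated data. The number of arrays limits the precision. Numbers were checked for pairing by the correlation of same-numbered arrays' deviations from their group means over all genes: it was over 0.1 in all 9 pairs of groups of 1 genotype (0.134 to 0.435) and in all 9 of 1 population (0.245 to 0.549), the pairs that are compared, and in 16 of the 18 pairs that differ in both. The labels repeat genotype and number in every population. Values with the number as a block are therefore given where they change a call. Every member may be named. Values on each array were given for a set chosen by role, and other genes by the largest called change in their list. Members and lists were chosen with earlier results of these data known, so a pattern already seen in them is no independent support. Alternatives were a replicate block, also by genotype and number together, log2(intensity + 32), trended and robust limma, a filter on dim genes and other thresholds. Each number alone and leaving out each array were tried as well. Quantile and cyclic loess normalisation, the mean of a gene's rows and genotype fits on only the arrays compared were also run. Their counts are not given here.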

Additional observations from a re-analysis of the deposited data

Results flagged for a closer look

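The difference between number 2 and number 1 arrays was not the same in the 3 sorted populations. By the test of the interaction in limma, it was larger in CD69+ DP than in CD69- DP cells for 25 of the 39 genes at an adjusted p under 0.05 (median of the difference 1.01 on the log2 scale), and larger in CD69+ DP than in SP4 cells for 20 (median 0.95). Between SP4 and CD69- DP cells 0 genes passed, with 1 at an unadjusted p under 0.05 and a median of 0.06. Cd69 and Itm2a were lower and Rag2 and Jun higher on the number 2 arrays of CD69+ DP cells, but Jun was also higher on number 2 in CD69- DP and SP4 cells, and Cd69 and Itm2a lower in SP4 cells of each genotype. In CD69- DP cells of each genotype Cd69 and Itm2a were higher on number 2. The part of all these genes in the difference was not tested.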

How the results depend on the processing

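The number of the 39 genes called depended on the setting, while the direction of the 3 population changes did not turn for the median of the 39. Where no count over all genes stands beside it, a count does not show whether other genes changed alike with the setting. For CD69+ DP against CD69- DP cells 36 were called and 13 at an adjusted p under 0.01. For SP4 against CD69+ DP cells 7 were called, against 2 at an adjusted p under 0.01, 35 at an unadjusted p under 0.05, 2 with log2(intensity + 32), 2 with a trended and robust fit, 12 without dim genes, 38 on number 1 and 16 on number 2 arrays alone. For SP4 against CD69- DP cells 0 were called, against 3 at an unadjusted p under 0.05, 24 on number 1 and 17 on number 2 arrays alone. Of single genes, Cenpf turned in sign from CD69+ DP to SP4 cells on number 2 arrays alone (-0.053 on the log2 scale). With the replicate block the counts were 39, 36 and 7 for the 3 population comparisons, and 0 of the 39 were called between genotypes, as without it. With genotype and number together as the block, 37 were called for SP4 against CD69+ DP (2887 of all genes in either direction) and 12 for SP4 against CD69- DP cells (3528 of all genes).

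Leaving out 1 array, the count ranged from 16 to 39 for CD69+ DP against CD69- DP (median change -1.57 to -1.01), from 2 to 36 for SP4 against CD69+ DP (0.57 to 1.15) and stayed at 0 for SP4 against CD69- DP cells (-0.52 to -0.31). The Gli3-/- difference from WT turned in sign, with medians of -0.37 to 0.15 in CD69- DP, -0.44 to 0.73 in CD69+ DP and -0.07 to 0.46 in SP4 cells, and -0.14 to 0.27 over all 3, and the difference of it between CD69+ DP and CD69- DP cells had medians of -0.35 to 0.85. Among single genes, Kif20a in CD69- DP cells went up to 0.052, and in CD69+ DP cells Ttk ranged from -0.075 to 1.07, Bub1b from -0.29 to 1.11 and Cdc25c from -0.34 to 1.13. In the population of the array left out, 1 genotype is then read from 1 number only, so these ranges also hold the difference between numbers. Within number 1 and number 2, the Gli3-/- medians were 0.16 and 0.15 in CD69+ DP and 0.11 and 0.23 in SP4 cells. They were -0.31 and 0.05 in CD69- DP cells. The part of the number in these changes was not tested.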
